A study of Mus musculus with 8 samples.

Results

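Claudins are the membrane proteins that set how tight a tight junction is, and 9 claudin genes of colon epithelium and vessel endothelium are described here: Cldn2, Cldn3, Cldn4, Cldn5, Cldn7, Cldn8, Cldn12, Cldn15 and Cldn23. They were chosen by name, with earlier results of these data known, and all 9 were found among the 22180 genes measured. Each had 1 probe set (the group of probes that reads 1 gene). Gene expression was measured on Affymetrix Mouse Gene 2.0 arrays in colon cells sorted by a gate for endothelium, which kept CD31-positive cells that carried neither CD45 nor CD11b. The recipients were female C57BL/6 mice whose age is not given in the sources used here. All of them had received busulfan and cyclophosphamide for 5 days and then bone marrow and T cells, so that both groups carry the effects of conditioning and transplantation and neither is an untreated control. Donors were LP/J mice in the allogeneic group (n = 4 arrays) and C57BL/6 mice in the syngeneic group (n = 4 arrays), and colon was taken at day 2. The study asked about endothelial cells early in graft-versus-host disease, in which donor T cells attack organs of the recipient, the colon among them.

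Claudins of neighbouring cells bind each other across the intercellular space and form the strands of the tight junction. Some seal the path between cells, and others form pores that let small cations or water through. Cldn5 encodes the main claudin of endothelial strands. The colon epithelium uses the other 8: claudin-2 and claudin-15 form cation pores, claudin-3, claudin-4 and claudin-8 are counted among the sealing claudins, claudin-7 also lies along the basolateral membrane, where it binds EpCAM, and claudin-23 is a claudin of surface colonocytes.

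The stretches of DNA just before the transcription start are shown for the endothelial claudin gene Cldn5 and for the pore claudins Cldn2 and Cldn15. They are the 250 bases before the start in RefSeq (build GRCm38.p6), all on the plus strand, at chr16:18776597-18776846 for Cldn5, chrX:139800558-139800807 for Cldn2 and chr5:136967619-136967868 for Cldn15. Capitals mark GGGCGG, the GC box, on either strand in Cldn5, and TTTAT, the core of sites for caudal-type factors such as CDX2, on either strand in Cldn2 and Cldn15. Cldn15 also holds a GGGCGG, at bases 108 to 103 before the start, which is left in small letters.
Cldn5: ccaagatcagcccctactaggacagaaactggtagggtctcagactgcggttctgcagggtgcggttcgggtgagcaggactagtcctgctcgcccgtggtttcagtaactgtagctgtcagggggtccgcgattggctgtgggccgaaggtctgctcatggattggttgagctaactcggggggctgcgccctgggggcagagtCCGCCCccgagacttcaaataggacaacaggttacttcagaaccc
Cldn2: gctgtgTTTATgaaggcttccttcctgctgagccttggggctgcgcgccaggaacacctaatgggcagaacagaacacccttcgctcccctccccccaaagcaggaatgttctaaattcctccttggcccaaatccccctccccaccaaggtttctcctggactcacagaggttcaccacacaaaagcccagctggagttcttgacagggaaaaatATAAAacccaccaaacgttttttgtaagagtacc
Cldn15: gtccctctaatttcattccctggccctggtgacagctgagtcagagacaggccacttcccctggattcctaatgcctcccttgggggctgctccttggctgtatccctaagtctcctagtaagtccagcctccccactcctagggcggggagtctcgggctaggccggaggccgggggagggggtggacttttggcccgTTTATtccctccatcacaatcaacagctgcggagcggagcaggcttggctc

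Such windows were at hand for 7 of the 9 genes, all but Cldn8 and Cldn23, and the 7 genes had 10 windows because Cldn7 and Cldn12 have several starts. TTTAT was found before 2 of the 7 genes, which were the pore claudins, and in 37.3% of the 32851 windows of this length before transcription starts of mouse genes. In Cldn15 the match covered bases 51 to 47 before the start. In Cldn2 the matches covered bases 244 to 240 and 34 to 30 before the start, and the second overlapped a TATAAA sequence, which 12.4% of all windows held. GGGCGG stood before 6 of the 7 genes and in 32.7% of all windows, and the exception was Cldn2. A gene was counted if any of its windows held the sequence, while the shares count single windows, so the 2 are not directly comparable. The windows also differ in base content: G and C made up 59.6% for Cldn5, 60.8% for Cldn15 and 52% for Cldn2, against a median of 52.4% over all windows. These matches describe the letters of the windows and show no binding. In the RefSeq order of protein-coding genes, Cldn3 and Cldn4 lie next to each other on chromosome 5, and Cldn8 lies next to Cldn17 on chromosome 16.

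Values are log2 signals after RMA normalization (a difference of 1 is a 2-fold difference), and changes are allogeneic minus syngeneic. The 8 arrays had medians between 4.68 and 4.79, and their number sets the precision. Both cell types that use these claudins were present in the RNA. Pecam1, which encodes CD31, averaged 10.1 and 10.6 in the allogeneic and syngeneic group. The array means of 22 endothelial marker genes ran from 7.63 to 8.30 in the allogeneic and from 7.89 to 9.78 in the syngeneic group. Those of 22 colon epithelial marker genes ran from 10.82 to 11.01 and from 10.26 to 10.88. Syngeneic arrays 3 and 4 stood apart, with the highest endothelial means (8.93 and 9.78) and the lowest epithelial ones (10.6 and 10.3), so results are also given without them. No gene of either list passed the test described below, which called 0.469% of all genes. All 22 endothelial genes had a negative log2 change and 19 of the 22 epithelial ones a positive one, against 49% of all genes with a positive change. Genes of a list were read on the same 8 arrays and do not count as independent. The array means of 9 leukocyte genes ran from 4.65 to 5.17 in the allogeneic and from 4.82 to 5.42 in the syngeneic group. Ptprc, which encodes the excluded CD45, averaged 5.20 and 5.19. Of the 9 genes 4 had a positive and 5 a negative log2 change, and 1 passed the test, as a lower gene, against 0.113% of all genes called lower. This was S100a8, a gene of neutrophils and monocytes that is named here after its values were seen, with means of 3.07 ± 0.36 in the allogeneic and 5.01 ± 0.21 in the syngeneic group (SD, n = 4 each), no overlap and a limma adjusted p of 0.0042 for its log2 change of -1.94. The allogeneic S100a8 mean was near background: it lay below 3.18, the highest signal of the measured Y-linked genes, which female recipients lack. The part of leukocytes in the claudin signals was not tested. In such a mixture, fewer cells of a type and less RNA per cell cannot be told apart.

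None of the 9 claudins passed the test, a limma fit with p-values adjusted over all genes and a threshold of 0.05, which called 0.469% of all genes. Cldn15 came nearest and was 1.54-fold higher in the allogeneic group. It was the only 1 of the 9 with an unadjusted p below 0.05, a limit that 13.2% of all genes met, and the only 1 of the 9 whose groups did not overlap, as in 8.55% of all genes. Of the 9 genes 6 had a positive log2 change, against 49% of all genes, and their median change was 0.029 against -0.0050 over all genes. These shares are near those of all genes.

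**Figure D1:**
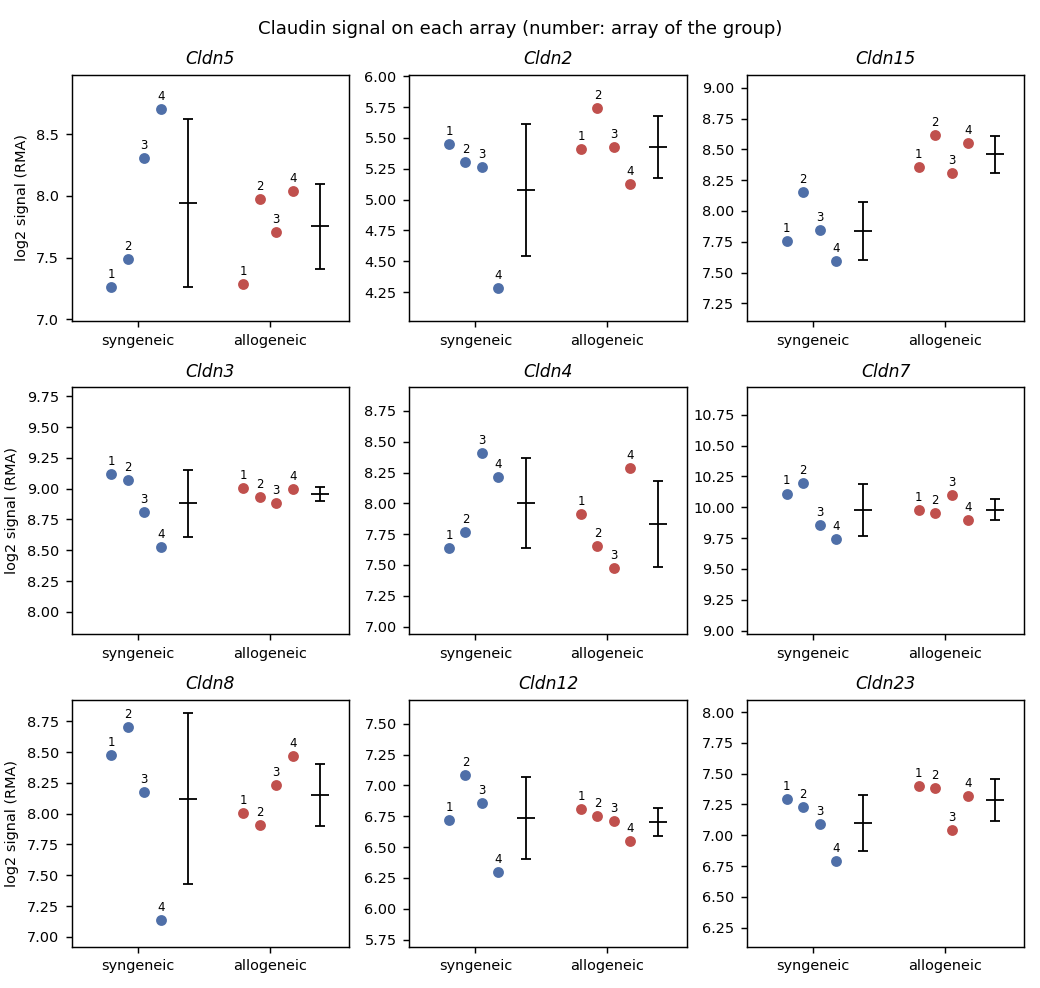
Log2 signal (vertical axis, every panel spanning the same number of log2 units) of the 9 claudin genes on the 4 syngeneic (blue) and 4 allogeneic (red) arrays. Numbers name the array within its group, and black bars give the mean ± SD. Cldn15 separates the groups, with all allogeneic arrays at 8.31 or above and all syngeneic arrays at 8.15 or below. Syngeneic array 4 is highest for Cldn5 and lowest for 7 of the other 8 genes.

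The endothelial claudin gene Cldn5 did not differ between the groups by more than their spread. Its signals were 7.29, 7.97, 7.71 and 8.04 on allogeneic arrays 1 to 4 and 7.26, 7.49, 8.31 and 8.71 on syngeneic arrays 1 to 4. The syngeneic group held both the lowest and the highest of the 8 values, so the groups overlapped throughout. Means were 7.75 ± 0.34 and 7.94 ± 0.68 (SD, n = 4 each), so that the log2 change was -0.19 ± 0.31 (SE, limma adjusted p = 0.848) with a 95% interval from -0.86 to 0.49. The interval spans from 0.55-fold to 1.4-fold, so smaller differences in either direction lie within it. The direction rested on 1 array: without syngeneic array 4 the log2 change was 0.066, and without syngeneic arrays 3 and 4 it was 0.38 ± 0.22 (SE, limma adjusted p = 0.602).

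The Cldn5 signal was next set against the endothelial markers. It and the mean of the 22 endothelial markers, which do not include Cldn5, had a Pearson r of 0.806 over the 8 arrays (two-sided exact permutation p = 0.0220) and a Spearman rho of 0.714 (exact p = 0.0576). Without syngeneic arrays 3 and 4, which lay farthest from the median of the marker mean, r was 0.18 over the 6 arrays left (exact p = 0.711), so the relation rested on those 2 arrays. With the endothelial mean as a covariate the log2 change of Cldn5 was 0.33 ± 0.22 (SE, limma adjusted p = 0.697). The part of endothelial content in the Cldn5 signal was not tested further.

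The pore claudins Cldn2 and Cldn15 both had higher means in the allogeneic group, and neither passed the test. Cldn15, the sodium pore of intestinal epithelium, had signals of 8.35, 8.62, 8.31 and 8.55 on the allogeneic arrays and 7.76, 8.15, 7.85 and 7.59 on the syngeneic arrays. Every allogeneic array lay above every syngeneic one, by 0.16 at the closest pair. Means were 8.46 ± 0.15 and 7.84 ± 0.23 (SD, n = 4 each), so that the log2 change was 0.62 ± 0.15 (SE, limma adjusted p = 0.103) with a 95% interval from 0.29 to 0.95, or from 1.23-fold to 1.93-fold. The change stayed positive under all 19 alternative settings, between 0.46 and 0.73, with limma adjusted p between 0.0551 and 0.454. It was 0.54 without syngeneic array 4 and 0.50 without syngeneic arrays 3 and 4.

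Cldn15 was higher on the arrays of the group that also had the higher epithelial means. The mean of the 22 epithelial markers was 10.9 ± 0.084 in the allogeneic and 10.6 ± 0.28 in the syngeneic group (SD, n = 4 each), and the groups overlapped there, since syngeneic array 2 (10.88) lay above allogeneic array 2 (10.82). With that mean as a covariate the log2 change of Cldn15 was 0.46 ± 0.17 (SE, limma adjusted p = 0.454). Means of 9 surface colonocyte markers differed by 0.45 between the groups, of 9 crypt markers by 0.21 and of 8 goblet cell markers by 0.27, each with overlap. A correlation of Cldn15 with these means was not computed, since the groups separate for Cldn15 and 4 arrays in a group are too few for one.

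Cldn2 encodes the cation and water pore of crypt and leaky epithelia. Its signals were 5.41, 5.75, 5.42 and 5.13 on the allogeneic and 5.45, 5.31, 5.26 and 4.28 on the syngeneic arrays. Syngeneic array 4 was far below the other 7 arrays, which overlapped. The log2 change was 0.35 ± 0.25 (SE, limma adjusted p = 0.601), and 0.087 without syngeneic array 4. As a guide to background, the 3 measured genes of the Y chromosome, which female recipients lack, read up to 3.18. Of the 9 claudins 8 passed a filter on dim genes that was tried as an alternative, and Cldn2 did not.

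**Figure D2:**
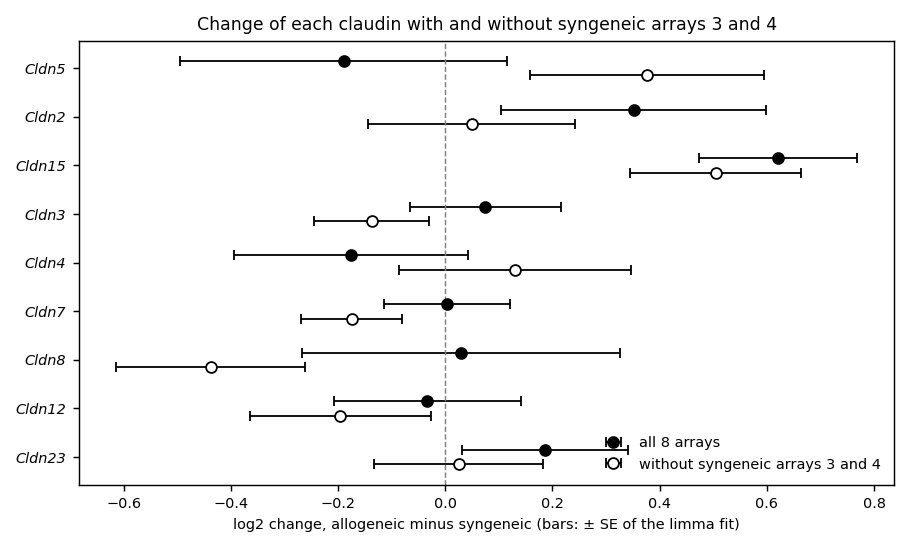
Log2 change (horizontal axis, allogeneic minus syngeneic) of the 9 claudin genes in the limma fit of all 8 arrays (filled points) and without syngeneic arrays 3 and 4 (open points); bars are ± SE. Cldn15 stays near 0.5 or above in both, while Cldn5 moves from -0.19 to 0.38 and Cldn8 from 0.029 to -0.44.

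The remaining 6 epithelial claudins had log2 changes between -0.18 and 0.19, with limma adjusted p between 0.665 and 0.995. Cldn7 varied least of the 9 genes over the 8 arrays. Its signals were 9.98, 9.95, 10.1 and 9.89 on the allogeneic and 10.1, 10.2, 9.86 and 9.75 on the syngeneic arrays, a log2 change of 0.0031 ± 0.12 (SE). The 95% interval of its change ran from -0.26 to 0.26, so that differences beyond 1.20-fold in either direction lay outside it.

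Cldn3, which encodes a sealing claudin, read 9.01, 8.93, 8.89 and 9.0 on the allogeneic arrays and 9.12, 9.07, 8.81 and 8.53 on the syngeneic arrays. The allogeneic values fell inside the syngeneic range, and the log2 change was 0.075 ± 0.14 (SE). Its neighbour on the chromosome, Cldn4, had another order of arrays. Cldn4 encodes a sealing claudin and a receptor of Clostridium perfringens enterotoxin, and read 7.91, 7.65, 7.48 and 8.28 on the allogeneic and 7.64, 7.77, 8.41 and 8.22 on the syngeneic arrays. It was highest on syngeneic array 3, and it was the single epithelial claudin of the 8 that was not lowest on syngeneic array 4. Its log2 change was -0.18 ± 0.22 (SE), and 0.13 without syngeneic arrays 3 and 4.

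Cldn8 encodes a sealing claudin that limits sodium leak in the distal colon. It read 8.01, 7.91, 8.23 and 8.47 on the allogeneic and 8.47, 8.71, 8.18 and 7.13 on the syngeneic arrays. Of the 9 genes it had the widest range over the arrays, 1.57, with its lowest value on syngeneic array 4. The log2 change was 0.029 ± 0.30 (SE). Without syngeneic array 4 it was -0.30, without syngeneic arrays 3 and 4 it was -0.44 ± 0.18 (limma adjusted p = 0.414), and with the epithelial mean as a covariate -0.65 ± 0.17 (limma adjusted p = 0.263). None of these passed the test.

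Cldn12 encodes a claudin that lacks the C-terminal PDZ-binding end of most others. It read 6.81, 6.76, 6.71 and 6.55 on the allogeneic and 6.72, 7.09, 6.86 and 6.30 on the syngeneic arrays, a log2 change of -0.033 ± 0.17 (SE). Cldn23 read 7.40, 7.39, 7.04 and 7.32 on the allogeneic and 7.30, 7.23, 7.09 and 6.79 on the syngeneic arrays, a log2 change of 0.19 ± 0.15 (SE). Groups overlapped for both genes, and syngeneic array 4 was the lowest of the 8 for both.

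**Figure D3:**
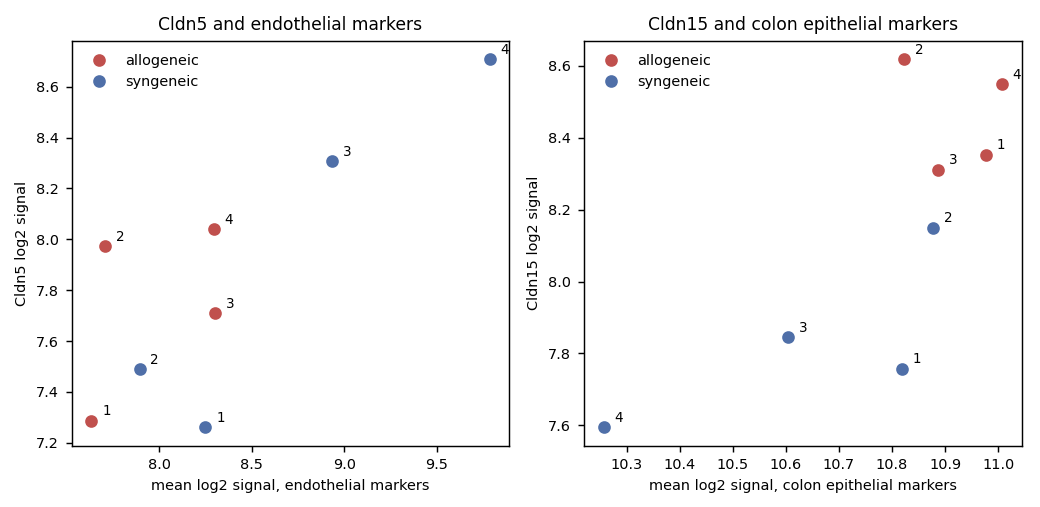
Left, Cldn5 log2 signal against the mean log2 signal of the 22 endothelial markers; right, Cldn15 log2 signal against the mean of the 22 colon epithelial markers. Each point is 1 array, red for allogeneic and blue for syngeneic, numbered within its group. Syngeneic arrays 3 and 4 have the highest endothelial means (8.93 and 9.78) and the lowest epithelial means (10.6 and 10.3). For Cldn15 every allogeneic array lies above every syngeneic array, while the groups overlap in the epithelial mean.

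Whether Cldn5 changed unlike the epithelial claudins was tested within arrays, by the difference between the Cldn5 signal and that of each of the other 8 genes. In this mixture of cells, such a difference cannot tell a change in claudin RNA per cell from a change in cell content. The change of Cldn5 was lower than that of Cldn15 by 0.81 on the log2 scale, from a mean difference of 0.10 ± 0.83 in the syngeneic to -0.71 ± 0.25 in the allogeneic arrays (SD, n = 4 each), and the groups overlapped (two-sided exact permutation p = 0.171). Without syngeneic arrays 3 and 4 this difference was -0.13. Against Cldn2 it was -0.54 (exact p = 0.514), against Cldn23 -0.38 (exact p = 0.486) and against the other 5 between -0.26 and -0.014 (exact p between 0.657 and 0.971). None of the 8 comparisons passed, before any adjustment for their number. The smallest p that 4 against 4 arrays can give is 0.0286. Without syngeneic arrays 3 and 4 all of them but that against Cldn15 were positive, between 0.25 and 0.81, with 2 syngeneic arrays left.

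Beyond these 9 genes, 24 further genes with a symbol that starts with Cldn were measured, and none passed the test, which called 0.469% of all genes. The 24 include Cldnd1 and Cldnd2, whose symbols carry no claudin number, and Cldn34-ps, whose symbol marks a pseudogene. Log2 changes of the 24 ran from -0.42 to 0.47 with a median of -0.060, 9 positive and 15 negative, where 49% of all genes had a positive change. Only Cldn16 and Cldn34b1 had an unadjusted p below 0.05, 2 of 24 against 13.2% of all genes. Cldn16, a claudin of renal magnesium reabsorption, averaged 3.46 ± 0.077 in the allogeneic and 3.87 ± 0.41 in the syngeneic group (SD, n = 4 each), and the groups overlapped. Cldn34b1 averaged 3.19 and 2.72, near the signals of the Y-linked genes. Genes of the Cldn34 group are much alike in sequence, so their probes may read one another.

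Among partners of claudins in the junction, 2 of 22 measured genes passed the test, 1 in each direction, against 0.356% of all genes called higher and 0.113% called lower. Occludin (Ocln), a membrane protein of the same strands, read 8.50, 8.47, 8.39 and 8.69 on the allogeneic and 7.80, 7.83, 7.80 and 7.59 on the syngeneic arrays. The groups lay well apart, and Ocln rose 1.69-fold, by 0.75 ± 0.12 on the log2 scale (SE, limma adjusted p = 0.0340). F11r, which encodes the junctional adhesion molecule JAM-A of epithelium, endothelium and leukocytes, read 9.84, 9.87, 10.05 and 9.99 on the allogeneic and 10.48, 10.50, 10.40 and 10.48 on the syngeneic arrays. F11r fell, again without overlap, its log2 change being -0.53 ± 0.087 (SE, limma adjusted p = 0.0340). Both genes kept their direction in all 19 alternative settings and lost the call in 11 of them, 6 of these being fits that left out 1 array. Without syngeneic arrays 3 and 4 the log2 changes were 0.69 and -0.55 (limma adjusted p = 0.0995 and 0.0703), and with the epithelial mean as a covariate 0.63 and -0.54 (limma adjusted p = 0.214 and 0.143).

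**Figure D4:**
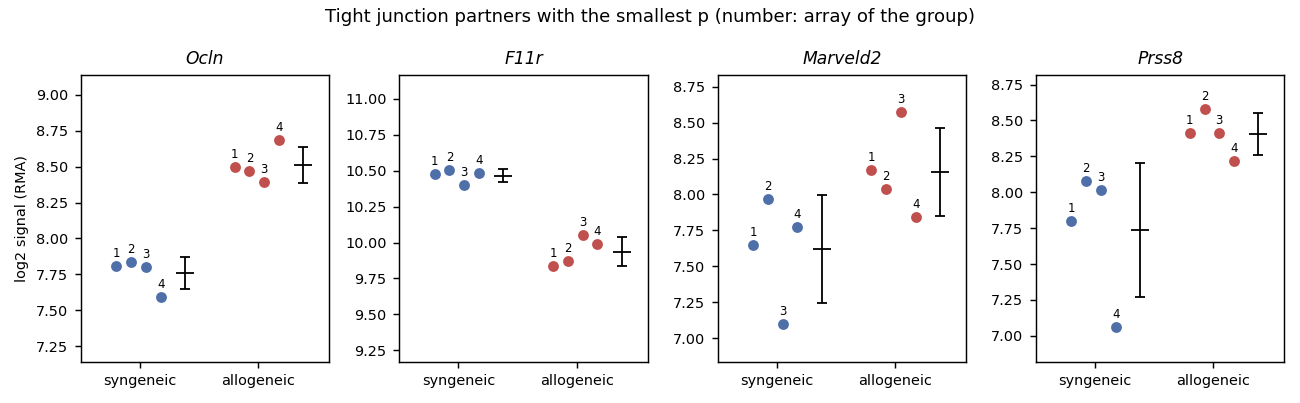
Log2 signal (vertical axis, every panel spanning the same number of log2 units) of the 4 junction partners with the smallest p on the 4 syngeneic (blue) and 4 allogeneic (red) arrays, numbered within their group; black bars give the mean ± SD. Ocln and Prss8 are higher and F11r is lower on every allogeneic array than on any syngeneic array, while the groups overlap for Marveld2.

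The other 20 partner genes did not pass. Prss8, which encodes the membrane-bound protease prostasin, differed by 0.67 ± 0.21 on the log2 scale (SE, limma adjusted p = 0.205), and Marveld2, which encodes tricellulin of 3-cell contacts, by 0.54 ± 0.21 (SE, limma adjusted p = 0.304). Over the list 15 genes had a positive and 7 a negative log2 change, with a median of 0.16, where 49% of all genes had a positive change. Groups did not overlap in 4 of the 22, against 8.55% of all genes. Epcam, which encodes the partner of claudin-7, averaged 9.49 ± 0.019 and 9.23 ± 0.21 (SD, n = 4 each).

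None of 11 measured factors known to act on claudin genes or on endothelial junctions passed the test, which called 0.469% of all genes. Of the 11 factors 5 had a positive log2 change, against 49% of all genes. Both are near the shares of all genes. Erg, an endothelial factor of the ETS family, had the smallest p, its log2 change being -0.85 ± 0.34 (SE, limma adjusted p = 0.318). Erg is also 1 of the 22 endothelial markers, and its highest signals were on syngeneic arrays 3 and 4 (7.37 and 8.30). The intestinal factor Cdx2 averaged 8.33 ± 0.064 in the allogeneic and 7.81 ± 0.61 in the syngeneic group (SD, n = 4 each), a log2 change of 0.53 (limma adjusted p = 0.407). Its syngeneic values were lowest on arrays 3 and 4, and Cdx2 is also 1 of the 22 colon epithelial markers. Ctnnb1, which encodes beta-catenin, was at 0.26 and the epithelial factor Grhl2 at 0.35.

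Genes whose signal went most like that of a claudin were found by Pearson correlation over the 8 arrays, with the group means taken off. For Cldn5 these were Pygm (r = 0.985), Sox7 (0.984), which encodes a factor of endothelial cells, and Gpx7 (0.977). For Cldn4 they were Adamtsl4 (0.98), Fam20a (0.98) and Dlgap4 (0.98). For Cldn2 they were Dsg2 (0.990), Rnf149 (0.988) and Myoz1 (0.985). For Cldn3 they were Tcea3 (0.992), Elovl7 (0.992) and Glt1d1 (0.988). Cldn7 had Alg9 (0.998), Aldh16a1 (0.997) and Srrt (0.992). For Cldn8 they were Dpysl2 (0.991), Spint2 (0.987) and Syndig1 (0.982), of which Spint2 is a protease inhibitor gene of the partner list. Cldn12 had Arhgef11 (0.994), Lgals2 (0.988) and Rpn1 (0.986), and Cldn23 had Zfp112 (0.980), Prom1 (0.976) and Ano9 (0.970). For Cldn15 they were Usp26, Hotair and Tssk6 (0.97 to 0.98), whose r with group means left in was only 0.200, 0.502 and 0.428. Of the 3 genes per claudin, the ranking with group means left in named 2 again for Cldn4, 1 each for Cldn12 (Lgals2) and Cldn23 (Prom1) and 0 for the other 6. With 22180 genes and 8 arrays these likenesses describe the arrays, among which syngeneic array 4 was an extreme for 8 of the 9 claudins.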

How the data were processed

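Per the submitters' processing notes, the authors used RMA in Affymetrix Expression Console 1.4.1, and the deposited values are on the log2 scale with 1 value for each probe set and array; their probe annotation and level of summary were not stated. RMA corrects background and normalizes quantiles, so a low value is a low signal and not absence. Per the labels' protocols, targets were amplified from 700 pg of total RNA. Of 41345 probe sets, 23521 had exactly 1 gene symbol in the platform annotation, 1814 had several and 16010 none. A gene with several probe sets was read by the one that averaged highest over the 8 arrays, which gave 22180 genes. Groups came from the sample titles, which call the arrays biological replicates; the series' design text counts 4 mice per group.

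A linear model with 1 group coefficient was fitted with limma 3.58.1 in R 4.3.3 (eBayes with an intensity trend, no filter on dim genes), Benjamini-Hochberg adjustment ran over all genes, and the script was tested on simulated data. There, changes were set in genes at or above the median gene. The fit called 20% of the 1.5-fold and 67.2% of the 2-fold changes, so a gene that did not pass may still differ. The simulated noise was independent between genes and had the same SD in both groups. The arrays differ from that, with an SD for Cldn8 of 0.25 in the allogeneic and 0.69 in the syngeneic group. These rates are therefore only a guide. The differences between Cldn5 and each other claudin were tested by exact permutation over the 70 labelled splits. The correlations of Cldn5 with the endothelial mean were tested by exact permutation over all pairings of their array values. Named genes are the 9 claudins, further claudins with an unadjusted p below 0.05, up to 4 genes with the smallest p in the partner list and in the factor list, 3 genes most like each claudin without predicted genes, and Pecam1, Epcam and Ptprc as marker examples. S100a8 is named outside this rule. Members, lists and alternatives were chosen with earlier results of these data known, the choice of syngeneic arrays 3 and 4 included. Genes of the lists without a value by this rule are not reported here.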

Additional observations from a re-analysis of the deposited data

Results flagged for a closer look

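In 3 of 52 groups of 4 arrays examined, 1 array lay so far from the others that its gap exceeded Dixon's critical value, which chance gives in about 1 of 20 groups. All were syngeneic array 4. Cldn2 read 4.28 there, against 5.26 on the nearest syngeneic array. Ocln read 7.59, against 7.80. The mean of the goblet cell markers was 9.44, against 10.39.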

How the results depend on the processing

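The count of claudins past the threshold was 0 in the fit reported and in all 20 alternatives, and Cldn15 stayed positive in all of its 19. The count of genes past the threshold was 104. It was 193 among genes at or above the median gene, 69 with quantile normalization, 38 without syngeneic arrays 3 and 4, 7 with the epithelial mean as covariate, 28 with the endothelial mean and 305 at an adjusted p below 0.1. Leaving out 1 array gave between 8 (without syngeneic array 3) and 180 (without syngeneic array 2); the cause was not tested. Replicate numbers of the titles gave no sign that they pair the arrays, though this check cannot exclude a pairing. Correlations of same-numbered deviations ran from -0.096 to 0.095, and 3 of the 8 arrays went best with their own number. With the replicate number as a block 68 genes passed, 0 of them among the 9 claudins.

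Small log2 changes changed sign. Under the epithelial covariate they were -0.046 for Cldn2, -0.19 for Cldn3, 0.42 for Cldn5, -0.17 for Cldn7, -0.65 for Cldn8 and -0.027 for Cldn23. Under the endothelial covariate they were -0.046 for Cldn2, -0.13 for Cldn3, 0.041 for Cldn4, 0.33 for Cldn5, -0.14 for Cldn7, -0.40 for Cldn8 and -0.010 for Cldn23. Without syngeneic arrays 3 and 4 they were -0.14 for Cldn3, 0.13 for Cldn4, 0.38 for Cldn5, -0.17 for Cldn7 and -0.44 for Cldn8. With array weights Cldn3, Cldn7 and Cldn8 were at -0.0055, -0.046 and -0.15, and with quantile normalization Cldn7 and Cldn8 at -0.017 and -0.012. Fits that left out 1 array ran from -0.043 to 0.15 for Cldn3, from -0.42 to 0.066 for Cldn5, from -0.074 to 0.077 for Cldn7, from -0.30 to 0.22 for Cldn8 and from -0.18 to 0.082 for Cldn12.

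Cldn5 minus another claudin turned positive without syngeneic arrays 3 and 4, at 0.33 for Cldn2, 0.51 for Cldn3, 0.25 for Cldn4, 0.55 for Cldn7, 0.81 for Cldn8, 0.57 for Cldn12 and 0.35 for Cldn23. With 1 array left out it ran from -0.57 to 0.11 for Cldn3, from -0.15 to 0.17 for Cldn4, from -0.46 to 0.14 for Cldn7, from -0.56 to 0.37 for Cldn8 and from -0.42 to 0.25 for Cldn12. With 4 against 3 arrays this permutation test cannot pass the threshold.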
